A study of Rattus norvegicus with 17 samples.

Results

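The collagen genes of the rat meibomian gland (MG) were the genes with a symbol of the form Col, a number, a and a number, that reached at least 1 TPM in at least 3 rats. TPM gives a transcript's share of the transcripts of a sample, corrected for length. The table held 41 collagen symbols of 17251 genes, and 28 of them passed this rule, among 13105 genes that passed it in all. RNA came from the dissected MG of 17 female rats aged 10 to 12 weeks, in groups of 5 UVB P1.hMR, 3 UVB WT, 5 Control P1.hMR and 4 Control WT rats. WT rats were wild-type. P1.hMR rats carry the human mineralocorticoid receptor (MR) gene under its proximal P1 promoter, which is active in the tissues that express MR, on a Sprague-Dawley background. The UVB groups had their eyelids irradiated with ultraviolet B for 5 days, and the control groups had no irradiation. The question put to the data was which collagens changed after UVB and whether the transgene altered that change.

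Collagens are extracellular proteins built of triple helices, each made of alpha chains that can come from the same gene or from several. Fibrillar collagens form the tensile fibres of connective tissue, and basement membrane collagens form or border the sheet on which epithelial and endothelial cells rest. The remaining collagens decorate fibrils, form beaded filaments or hexagonal nets, anchor epithelia to the dermis, or span the cell membrane. In the eyelid, collagen-rich stroma surrounds the acini and ducts of the MG, and a basement membrane underlies their basal cells. The 28 genes fell into 7 fibrillar, 7 basement membrane and 14 other collagens.

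The libraries were checked before the collagens were read. Human NR3C2, which encodes MR, had 0 TPM in each WT rat and ranged from 5.31 to 9.31 TPM in the P1.hMR rats. The 8 meibocyte markers, among them Awat2 and Elovl3 of meibum lipid synthesis, summed to between 14271 and 22884 TPM in the 17 rats. Their sum was 21280 TPM on average in Control WT and 15804 TPM in UVB WT rats, and 19389 TPM in Control P1.hMR and 15801 TPM in UVB P1.hMR rats. The members did not move together, since Awat2 and Scd4 fell and Elovl3 rose in both genotypes, and the median log2FC of the 8 was -0.17 in WT and -0.0001 in P1.hMR. Some markers of tissues that make their own collagens stayed under 1 TPM in every rat. These were Acan, Matn1, Matn3, Cnmd and Hapln1 of cartilage and Bglap, Ibsp, Sp7, Dmp1 and Phex of bone. Other genes of these marker lists did not. Group means were 17.4 to 22.6 TPM for Sox9 and 1.2 to 2.4 TPM for Comp of cartilage. For bone they were 3.5 to 5.5 TPM for Alpl, 1.5 to 2.2 TPM for Runx2 and 1.35 to 7.2 TPM for Spp1. No 2 libraries held identical values, between 12372 and 12737 genes reached 1 TPM in each, and nothing in the labels says that the rats of a group shared a batch.

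All 28 collagens reached 1 TPM in at least 7 of the 9 control rats and at least 4 of the 8 UVB rats, so none passed the rule through a single condition. Col11a1 (mean of 17 rats 1.04 TPM, at or above 1 TPM in 11 rats) and Col4a4 (1.34 TPM, in 15 rats) stood just inside the rule. Col27a1 (0.618 TPM, no rat at 1 TPM), Col6a5 (0.442 TPM) and Col6a6 (0.415 TPM) stood just outside it. The other 10 collagens outside it, Col4a3, Col24a1, Col9a2, Col10a1, Col19a1, Col25a1, Col26a1, Col2a1, Col6a4 and Col9a1, had means between 0.0129 and 0.335 TPM. Col2a1, the main collagen of cartilage, never exceeded 0.12 TPM. Col1a2, Col6a3, Col21a1 and Col23a1 were not analysed here.

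Promoter sequences were read for the collagens whose responses to UVB ran together or apart. RefSeq windows on the GRCr8 build, 250 bases before to 50 bases after a start site, matched 21 of the 28 genes. Windows of 3 genes are shown, and no result rests on them. Col4a1 and Col4a2 encode the chains of the main type IV collagen of basement membranes and are read in opposite directions from start sites 77 bases apart on chromosome 16, so their windows share 176 bases. Both genes rose after UVB by similar amounts. Col8a1 and Col8a2, the chains of the short-chain type VIII collagen, lie on different chromosomes and were called in opposite directions in P1.hMR rats, while Col8a2 was not called in WT. The part of promoter position in these responses was not tested. Capitals mark the letters GGGCGG (the GC box) or CCAAT on either strand, the reverse complements being CCGCCC and ATTGG.
Col4a1, chr16:84885347-84885646 on the plus strand: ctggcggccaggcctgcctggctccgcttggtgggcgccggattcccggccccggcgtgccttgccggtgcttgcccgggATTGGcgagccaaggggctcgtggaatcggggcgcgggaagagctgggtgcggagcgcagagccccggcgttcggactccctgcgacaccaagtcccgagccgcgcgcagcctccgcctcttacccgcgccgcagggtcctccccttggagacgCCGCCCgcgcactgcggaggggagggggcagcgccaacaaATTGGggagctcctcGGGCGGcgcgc
Col8a1, chr11:56246532-56246831 on the plus strand: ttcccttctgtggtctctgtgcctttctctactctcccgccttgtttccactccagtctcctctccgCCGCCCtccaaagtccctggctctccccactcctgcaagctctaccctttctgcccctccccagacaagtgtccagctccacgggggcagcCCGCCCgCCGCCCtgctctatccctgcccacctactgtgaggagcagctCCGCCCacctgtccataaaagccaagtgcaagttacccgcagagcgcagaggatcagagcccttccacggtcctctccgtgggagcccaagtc
Col8a2, chr5:143870519-143870818 on the plus strand: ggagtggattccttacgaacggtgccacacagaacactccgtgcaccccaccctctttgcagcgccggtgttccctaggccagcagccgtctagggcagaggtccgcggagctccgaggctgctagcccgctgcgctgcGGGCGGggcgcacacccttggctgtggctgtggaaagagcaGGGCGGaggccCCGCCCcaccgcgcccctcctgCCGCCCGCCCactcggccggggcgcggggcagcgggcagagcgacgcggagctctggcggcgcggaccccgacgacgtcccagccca

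The Col4a1 window held 2 GC boxes and 2 CCAAT matches, that of Col8a1 held 4 GC boxes and that of Col8a2 held 5, of which 2 overlap by 2 letters. GC boxes were present in 14 of the 21 collagen windows (66.7%) and in 34.9% of the 27456 windows of all genes. The windows of all genes were not limited to genes expressed in the MG, so the 2 sets were not matched for expression. For CCAAT the shares were 33.3% and 37.7%, for TATAAA 9.52% and 14.3%, and for the AP-1 letters TGAGTCA and TGACTCA, which are each other's reverse complement, 4.76% and 4.53%. The only collagen window with the AP-1 letters was that of Col6a1. These matches describe letters in a window, and binding was not measured.

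Per transcript length, the MG was dominated by the chains of types I, III and XVII. Col1a1, a chain of the main fibril-forming collagen, averaged 441 TPM over the 17 rats and Col3a1, which forms type III fibrils beside it, 419 TPM. Their ranges, 229 to 656 and 294 to 526 TPM, overlapped. Col17a1, a membrane-spanning collagen of hemidesmosomes in basal epithelial cells, came next at 171 TPM, with a range of 134 to 212 TPM that lay below those of both. Col6a2 (72.2 TPM) and Col6a1 (57.9 TPM), chains of the beaded filament type VI collagen, followed, with ranges that overlapped each other. Among basement membrane collagens the highest means were 37.1 TPM for Col4a1 and 35.0 TPM for Col18a1, the source of endostatin, and 28.8 TPM for Col4a2. The fibrillar Col11a1 was lowest of all. In every rat the 28 collagens together made up between 0.135% and 0.207% of the table's summed TPM.

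**Figure D1:**
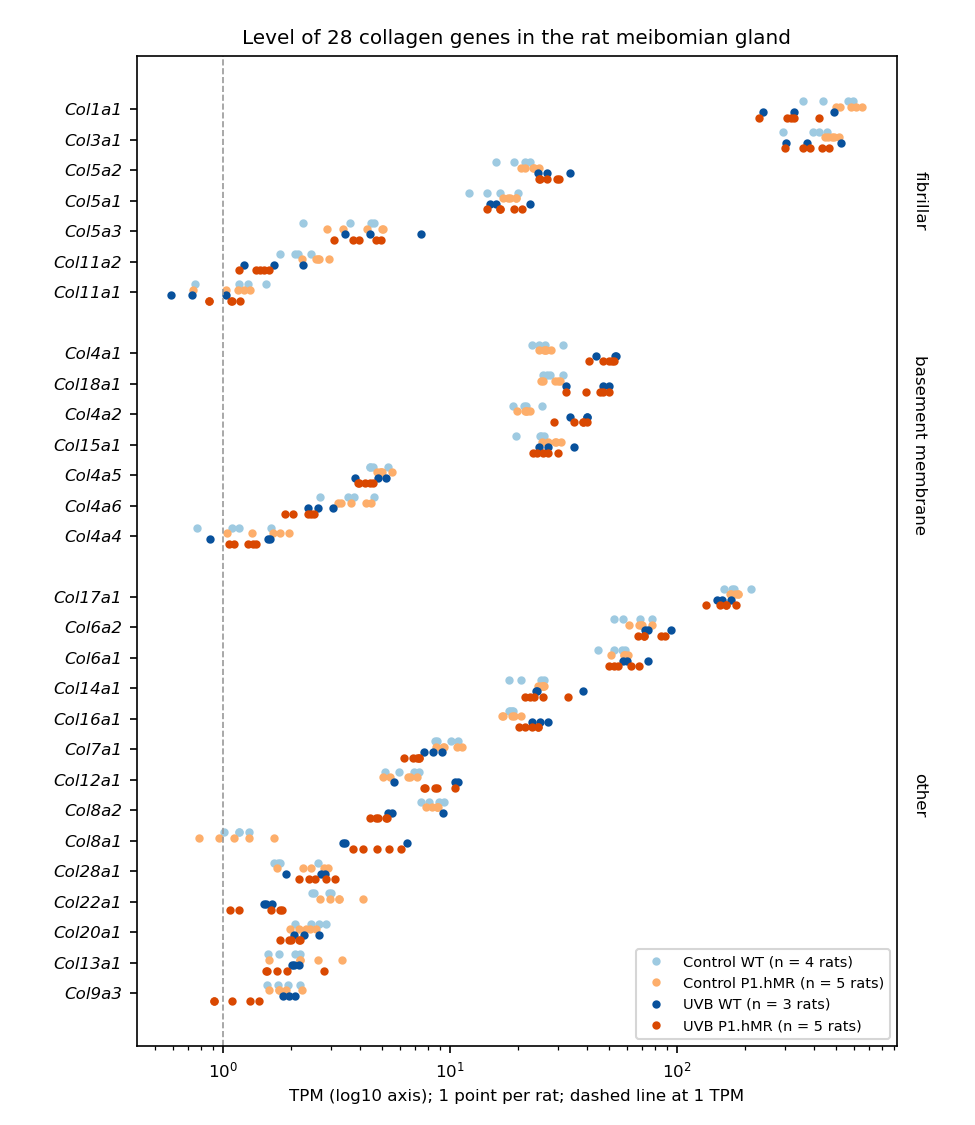
TPM of the 28 collagen genes on a log10 axis, 1 point per rat, coloured by group and ordered by mean level within the fibrillar, basement membrane and other classes. Col1a1, Col3a1 and Col17a1 stand above all others, and Col8a1 is the gene whose UVB and control points lie farthest apart.

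The level of a gene varied between rats of the same group by a median coefficient of variation of 9.32% in Control P1.hMR, 12.6% in UVB P1.hMR, 14.2% in Control WT and 18.3% in UVB WT rats. Collagens of a rat tended to lie on the same side. Of the 3 UVB WT rats, rat 1 had the highest value for 16 of the 28 genes and rat 2 the lowest for 24. Control WT rat 1 was the lowest of its group of 4 for 18 genes, and UVB P1.hMR rat 4 the highest of its group of 5 for 18. The 8 fibroblast markers summed to 1092 TPM in UVB WT rat 1, 636 TPM in rat 2 and 881 TPM in rat 3, and to 394 TPM in Control WT rat 1 against 532 to 583 TPM in the other Control WT rats. In RNA from a whole gland, fewer cells of a type and less RNA per cell cannot be told apart.

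After UVB, the basement membrane collagens Col4a1, Col4a2 and Col18a1 and the type VIII chain Col8a1 rose in both genotypes, while the fibril-associated Col22a1 fell in both. In WT rats 4 collagens rose and 1 fell, and in P1.hMR rats the same 4 rose and 5 fell. Differences were tested with limma on log2(TPM + 1) over all 13105 genes, where a call needed an adjusted p (Benjamini-Hochberg) below 0.05 and a log2 fold change (log2FC) of 0.5 or more in size. On this scale the changes of genes near 1 TPM come out too small. Each log2FC is given with its standard error (SE). The 5 calls of 28 in WT (17.9%) stood beside 7.91% of all genes, and the 9 calls in P1.hMR (32.1%) beside 10.8%. By direction, 3.92% of all genes rose and 3.98% fell in WT, and 5.05% rose and 5.71% fell in P1.hMR. The rats of UVB and control did not overlap for 7 collagens in WT (25%, against 26.6% of all genes) and for 13 in P1.hMR (46.4%, against 27.2%). All 5 genes called in WT were also called in P1.hMR, and Col1a1, Col8a2, Col11a2 and Col4a6 were called in P1.hMR only. WT had fewer rats, and the interaction of genotype and UVB called none of the 28.

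**Figure D2:**
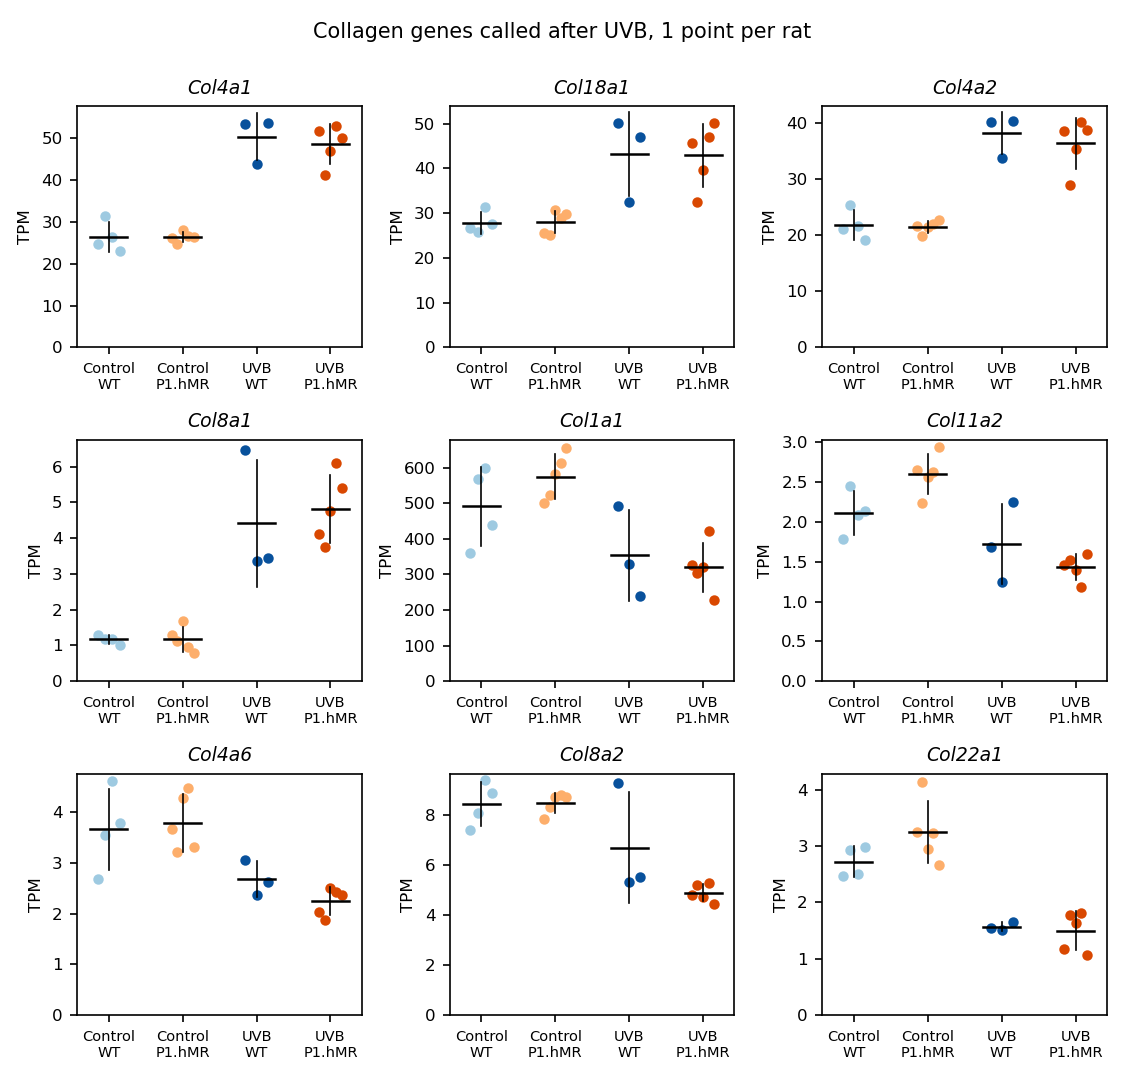
TPM of the 9 collagen genes called after UVB in at least 1 genotype, 1 point per rat, with the mean as a horizontal bar and 1 SD as a vertical line. The 4 genes that rose come first, and their UVB rats lie above all control rats of the same genotype, while the UVB WT rats overlap the Control WT rats for Col1a1, Col11a2, Col4a6 and Col8a2.

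Among basement membrane collagens, Control WT rats had Col4a1 at 24.6, 31.4, 26.3 and 23.0 TPM and UVB WT rats at 53.5, 43.8 and 53.7 TPM. In P1.hMR rats it stood at 26.1, 24.8, 27.9, 26.5 and 26.3 TPM without and at 51.8, 41.1, 47.0, 52.8 and 49.98 TPM with UVB. Every UVB rat was above every control rat in both genotypes. The log2FC was 0.91 ± 0.10 (SE, adjusted p = 4.08e-05) in WT and 0.85 ± 0.0832 (SE, adjusted p = 3.02e-06) in P1.hMR. Its partner chain Col4a2 went from 21.1, 25.4, 21.7 and 19.0 TPM in Control WT to 40.2, 33.8 and 40.3 TPM in UVB WT rats. In P1.hMR it went from 21.5, 19.8, 21.5, 21.9 and 22.6 to 38.5, 28.8, 35.4, 40.1 and 38.6 TPM. The groups did not overlap here either, and the log2FC was 0.78 ± 0.10 (SE, adjusted p = 0.000189) in WT and 0.72 ± 0.0869 (SE, adjusted p = 1.41e-05) in P1.hMR. The Col4a1 to Col4a2 ratio lay between 1.16 and 1.43 in all 17 rats.

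Col18a1, a heparan sulfate bearing collagen of epithelial and vascular basement membranes, was at 26.6, 25.8, 31.4 and 27.5 TPM in Control WT and at 50.1, 32.5 and 47.0 TPM in UVB WT rats. Values in P1.hMR were 25.6, 25.2, 30.7, 29.0 and 29.8 TPM without UVB and 45.6, 32.4, 39.7, 47.0 and 50.1 TPM with it. All UVB rats exceeded the controls of their genotype, although UVB WT rat 2 and UVB P1.hMR rat 2 did so narrowly. The log2FC was 0.60 ± 0.14 (SE, adjusted p = 0.00844) in WT and 0.59 ± 0.12 (SE, adjusted p = 0.00115) in P1.hMR. Without UVB WT rat 1 the WT value was 0.48 with an adjusted p of 0.0457, which is below the fold threshold. The other basement membrane collagen near the level of these 3, Col15a1, did not move with them, with a log2FC of 0.26 in WT (adjusted p = 0.13) and -0.13 with the transgene (adjusted p = 0.322).

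The other type IV chains, which form networks with a narrower tissue distribution, did not rise. Col4a6 was at 2.68, 3.55, 4.62 and 3.78 TPM in Control WT and 3.06, 2.36 and 2.62 TPM in UVB WT rats, and these groups overlapped. In P1.hMR it was at 3.67, 3.21, 4.28, 4.48 and 3.31 TPM without UVB and 2.03, 1.87, 2.51, 2.43 and 2.36 TPM with it, and the groups were apart. The log2FC was -0.56 ± 0.11 (SE, adjusted p = 0.000902) in P1.hMR and -0.33 ± 0.13 (SE, adjusted p = 0.0917) in WT. Col4a5, which lies head to head with Col4a6 on chromosome X with start sites 1415 bases apart, had a log2FC of -0.21 ± 0.0754 (SE, adjusted p = 0.0386) in P1.hMR, under the fold threshold, and of -0.02 ± 0.091 (SE, adjusted p = 0.883) in WT. Col4a4 had 0.12 and -0.18 and was not called. The median log2 fold change of the 7 basement membrane collagens was 0.26 in WT and -0.13 in P1.hMR, beside 0.01 and -0.02 over all genes. In both genotypes this median is the value of Col15a1, which was not called. Col4a1, Col4a2 and Col18a1 rose by similar amounts in the 2 genotypes.

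Of the fibrillar collagens, none was called in WT rats and 2 fell in P1.hMR rats. Col1a1 was at 361, 569, 598 and 438 TPM in Control WT and at 492, 328 and 239 TPM in UVB WT rats, where UVB WT rat 1 lay within the control range. In P1.hMR it was at 499.6, 523, 582, 614 and 656 TPM without UVB and at 327, 304, 319.6, 422 and 229 TPM with it, with no overlap. The log2FC was -0.86 ± 0.19 (SE, adjusted p = 0.0017) in P1.hMR and -0.51 ± 0.22 (SE, adjusted p = 0.116) in WT. Without UVB WT rat 1 the WT value was -0.78 with an adjusted p of 0.0232, which passed both thresholds, and without UVB WT rat 3 it was -0.26 with an adjusted p of 0.458. The difference between the responses of the genotypes was -0.35 (95% interval -0.97 to 0.26, adjusted p = 0.858).

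Col3a1 was at 294, 458, 424 and 399 TPM in Control WT and at 526, 374 and 302 TPM in UVB WT rats. P1.hMR rats had 451, 463, 491, 518 and 482 TPM without UVB and 437, 385, 358, 469.6 and 298 TPM with it. The groups overlapped in both genotypes, and the log2FC was 0.01 ± 0.18 (SE, adjusted p = 0.984) in WT and -0.32 ± 0.15 (SE, adjusted p = 0.0936) in P1.hMR. Col5a2, a chain of the type V collagen that sits inside type I fibrils, had a log2FC of 0.49 ± 0.12 (SE, adjusted p = 0.00789) in WT and 0.25 ± 0.10 (SE, adjusted p = 0.0497) in P1.hMR, both under the fold threshold. Its partner Col5a1 had 0.16 ± 0.15 (SE, adjusted p = 0.47) and -0.08 ± 0.12 (SE, adjusted p = 0.635), and the low Col5a3 had 0.34 in WT and 0.00 in P1.hMR. Col11a2, a chain of the type XI fibrils best known from cartilage, was at 2.65, 2.23, 2.56, 2.63 and 2.94 TPM in Control P1.hMR and at 1.46, 1.52, 1.40, 1.18 and 1.60 TPM in UVB P1.hMR rats, which did not overlap. In Control WT it was at 1.78, 2.45, 2.08 and 2.14 TPM and in UVB WT at 1.68, 1.24 and 2.25 TPM, with overlap. Its log2FC was -0.57 ± 0.10 (SE, adjusted p = 0.000303) in P1.hMR and -0.21 ± 0.12 (SE, adjusted p = 0.229) in WT, and Col11a1 did not pass the test in either. The median of the 7 fibrillar collagens was 0.01 in WT and -0.08 in P1.hMR.

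Of the shares of collagen TPM held by each class, only that of basement membrane collagens was apart between UVB and control rats in both genotypes. Fibrillar collagens made up 65.2% ± 3.35 (SD, n = 4) of the summed TPM of the 28 genes in Control WT and 58.0% ± 6.53 (SD, n = 3) in UVB WT rats. In P1.hMR they made up 68.7% ± 1.07 (SD, n = 5) without UVB and 58.3% ± 4.03 (SD, n = 5) with it. The ranges overlapped in WT (61.6% to 68.2% in control and 50.8% to 63.5% in UVB rats) and not in P1.hMR. The other collagens held 24.3% to 29.5% in Control WT and 25.5% to 34.1% in UVB WT rats, with overlap, and 22.8% to 25.7% and 27.3% to 33.0% in P1.hMR, without. Basement membrane collagens held 7.82% ± 0.751 (SD, n = 4) in Control WT and 12.5% ± 2.33 (SD, n = 3) in UVB WT rats, and 7.14% ± 0.299 (SD, n = 5) and 12.5% ± 1.72 (SD, n = 5) in P1.hMR. The ranges of the basement membrane share did not overlap between UVB (11.0% to 15.5%) and control rats (6.87% to 8.94%). The summed TPM of basement membrane collagens was 99.9 to 121 TPM in control and 133 to 188 TPM in UVB rats.

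**Figure D3:**
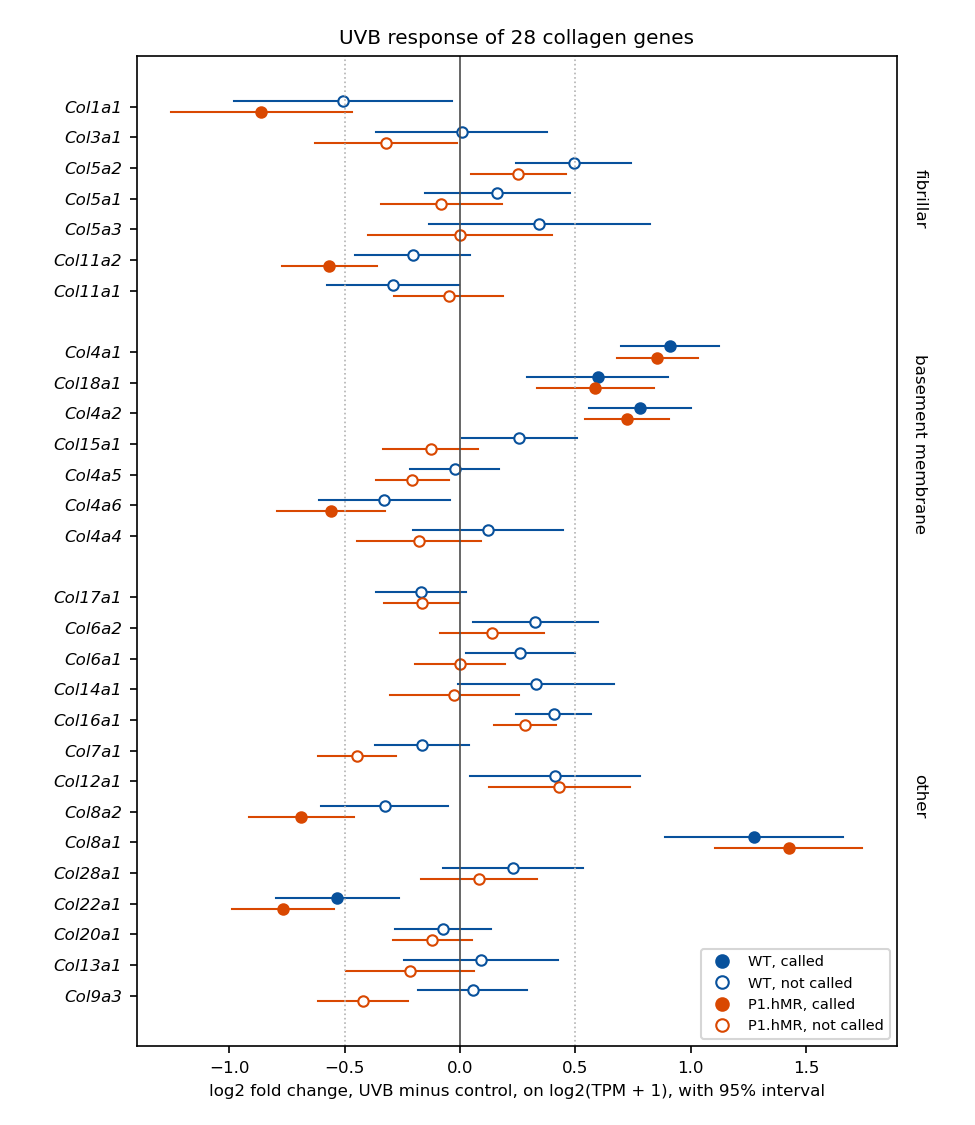
Log2 fold change of UVB against control on log2(TPM + 1) for the 28 collagen genes in WT and P1.hMR rats, with 95% intervals, filled where called, dotted lines at -0.5 and 0.5. Col4a1, Col4a2, Col18a1 and Col8a1 lie above 0.5 in both genotypes, Col22a1 lies below -0.5 in both, and 24 of the 28 genes have a lower value in P1.hMR than in WT rats.

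Of the 14 other collagens, the type VIII chain Col8a1, made by vascular and stromal cells and found in Descemet's membrane, changed most of all 28. It was at 1.30, 1.18, 1.18 and 1.01 TPM in Control WT and at 6.46, 3.36 and 3.43 TPM in UVB WT rats. Control P1.hMR rats had 1.30, 1.12, 1.67, 0.96 and 0.78 TPM and UVB P1.hMR rats 4.12, 3.74, 4.75, 6.10 and 5.39 TPM. Each UVB rat stood above each control rat, and the mean of UVB rats was 3.78 times that of controls in WT and 4.13 times in P1.hMR. The log2FC was 1.28 ± 0.18 (SE, adjusted p = 0.000282) in WT and 1.42 ± 0.15 (SE, adjusted p = 5.07e-06) in P1.hMR. Col8a2, the other type VIII chain, was at 7.86, 8.34, 8.72, 8.82 and 8.74 TPM in Control P1.hMR and at 4.80, 5.21, 4.72, 5.28 and 4.46 TPM in UVB P1.hMR rats, with a log2FC of -0.69 ± 0.11 (SE, adjusted p = 0.000131). In Control WT it was at 7.43, 8.08, 9.42 and 8.90 TPM and in UVB WT at 9.29, 5.31 and 5.53 TPM, where rat 1 reached the control range, with -0.33 ± 0.13 (SE, adjusted p = 0.0824). Without UVB WT rat 1, Col8a2 was called lower in WT as well.

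Col22a1, a fibril-associated collagen of tissue junctions such as that of muscle and tendon, was at 2.46, 2.93, 2.51 and 2.99 TPM in Control WT and at 1.55, 1.51 and 1.65 TPM in UVB WT rats. Among P1.hMR rats it was at 3.24, 4.13, 2.95, 3.23 and 2.67 TPM without UVB and at 1.18, 1.78, 1.63, 1.81 and 1.07 TPM with it. The groups were apart in both genotypes, and the log2FC was -0.53 ± 0.13 (SE, adjusted p = 0.00766) in WT and -0.77 ± 0.10 (SE, adjusted p = 4.05e-05) in P1.hMR. Without Control WT rat 4 the WT value was -0.50 at an adjusted p of 0.0223 and fell just short of the fold threshold. The 7 skeletal muscle markers in the table summed to 2374 to 3327 TPM in Control WT and 1576 to 2902 TPM in UVB WT rats, and to 2072 to 3674 and 1745 to 3221 TPM in P1.hMR. Of the 7, 1 was called lower in each genotype, and the log2FC was below 0 for 7 in WT and for 5 in P1.hMR. Actn3 averaged 71.9 TPM in Control WT and 21.3 TPM in UVB WT rats, and 69.7 and 27.9 TPM in P1.hMR. The part of these markers in the Col22a1 result was not tested.

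Among fibril-associated collagens that were not called, Col16a1 had a log2FC of 0.41 in WT (adjusted p = 0.00207) and 0.28 with the transgene (adjusted p = 0.00265), and Col12a1 had 0.41 (adjusted p = 0.104) and 0.43 (adjusted p = 0.0261). Of the beaded filament chains, Col6a1 had 0.26 ± 0.11 (SE, adjusted p = 0.106) in WT and 0.00 ± 0.0927 (SE, adjusted p = 0.996) with the transgene, and Col6a2 had 0.33 ± 0.13 (SE, adjusted p = 0.081) and 0.14 ± 0.11 (SE, adjusted p = 0.32). Collagens that fasten epithelium to stroma lay lower. Col17a1 had -0.17 ± 0.0923 (SE, adjusted p = 0.201) in WT and -0.17 ± 0.0765 (SE, adjusted p = 0.0952) with the transgene, and Col7a1, which forms anchoring fibrils, had -0.17 (adjusted p = 0.235) and -0.45 (adjusted p = 0.000396). The median over the 14 genes was 0.16 in WT and -0.07 in P1.hMR.

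Ratios of chains that share a molecule or a fibril were computed within each rat, so that they do not depend on the scaling of that rat. The Col3a1 to Col1a1 ratio was 0.815, 0.805, 0.709 and 0.912 in Control WT and 1.07, 1.14 and 1.26 in UVB WT rats. In P1.hMR rats it was 0.902, 0.885, 0.842, 0.844 and 0.734 without UVB and 1.34, 1.26, 1.12, 1.11 and 1.30 with it. It was below 1 in all 9 control rats and above 1 in all 8 UVB rats. The mean difference on the log2 scale was 0.52 in WT (two-sided exact permutation test, p = 0.0571) and 0.54 in P1.hMR (two-sided exact permutation test, p = 0.00794, adjusted p = 0.0198 over 10 tests). With 4 control and 3 UVB rats, 0.0571 is the smallest p that the WT design allows.

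The type V ratio moved the other way. Col5a1 to Col5a2 was 0.764, 0.935, 0.737 and 0.759 in Control WT and 0.67, 0.62 and 0.593 in UVB WT rats. In P1.hMR it was 0.837, 0.852, 0.77, 0.786 and 0.842 without UVB and 0.643, 0.677, 0.617, 0.689 and 0.586 with it. Each UVB rat was below each control rat of its genotype, by a log2 difference of -0.34 in WT (exact permutation p = 0.0571) and by a log2 difference of -0.35 in P1.hMR (exact permutation p = 0.00794, adjusted p = 0.0198). For type IV, the Col4a1 to Col4a2 ratio was higher by 0.13 in WT (exact permutation p = 0.0571) and by 0.13 in P1.hMR (exact permutation p = 0.0159, adjusted p = 0.0318). The P1.hMR groups overlapped, with control rats up to 1.302 and UVB rats from 1.294. Col4a5 to Col4a6 was higher by 0.50 in P1.hMR (exact permutation p = 0.00794, adjusted p = 0.0198) and by 0.40 in WT, where the groups overlapped (exact permutation p = 0.171). Col6a1 to Col6a2 was lower by a log2 difference of -0.14 in P1.hMR (exact permutation p = 0.00794, adjusted p = 0.0198) and by a log2 difference of -0.06 in WT with overlap (exact permutation p = 0.457). The Col1a1 to Col1a2 and Col9a1 to Col9a2 ratios were not computed.

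The type VIII pair, added after its values were seen and therefore given with no test, covered the widest range. Col8a1 to Col8a2 was 0.175, 0.146, 0.125 and 0.114 in Control WT and 0.695, 0.633 and 0.62 in UVB WT rats. Among P1.hMR rats it was 0.165, 0.134, 0.192, 0.109 and 0.0892 without UVB and 0.858, 0.718, 1.01, 1.16 and 1.21 with it. In 3 of the 5 UVB P1.hMR rats Col8a1 was above Col8a2, and in every control rat the ratio was below 0.2.

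**Figure D4:**
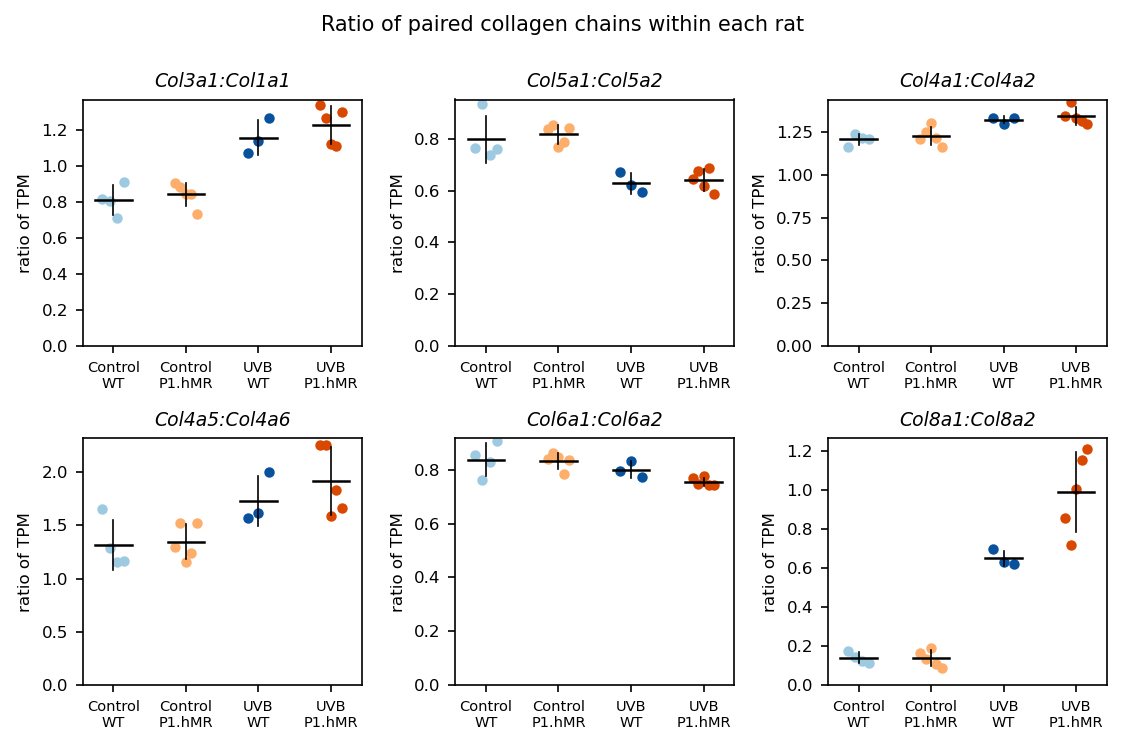
Ratio of TPM of paired collagen chains within each rat, 1 point per rat, with the mean as a horizontal bar and 1 SD as a vertical line. The Col3a1 to Col1a1 ratio crosses 1 between control and UVB rats, the Col5a1 to Col5a2 ratio is lower in UVB rats, and the Col8a1 to Col8a2 ratio is below 0.2 in all control rats and above 0.6 in all UVB rats.

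The genotype comparisons called no collagen. Under UVB, limma called 0 of 28, beside 0.0229% of all genes. Without UVB it called 0 (0.00763% of all genes), and the interaction called 0 (0% of all genes). At an unadjusted p under 0.05 in limma stood 3 of the 28 under UVB, beside 1348 of the 13105 genes, a similar share. Without UVB it was 1, beside 528 of all genes, also a similar share. For the interaction it was 5, beside 907 of all genes. Under UVB the 3 collagens were Col9a3, Col8a2 and Col7a1, named after their values were seen. Col9a3, a chain of the fibril-associated type IX collagen, was at 2.08, 1.84 and 1.96 TPM in UVB WT and at 1.32, 1.10, 0.91, 0.91 and 1.44 TPM in UVB P1.hMR rats, a difference of -0.48 ± 0.11 (SE, adjusted p = 0.178). Without UVB it was at 2.19, 1.56, 1.74 and 1.94 TPM in Control WT and 1.90, 1.77, 1.59, 1.77 and 2.22 TPM in Control P1.hMR rats. For each of the 3, all UVB P1.hMR rats lay below all UVB WT rats, as was so for 4.14% of all genes. Col8a2 differed by -0.35 (adjusted p = 0.343) and Col7a1 by -0.24 (adjusted p = 0.379). Without UVB WT rat 1 the difference of Col8a2 was -0.13 with an adjusted p of 0.751.

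The log2FC after UVB, read with its sign, was lower in P1.hMR than in WT rats for 24 of the 28 collagens (85.7%, against 55% of all genes). The median interaction was -0.24 beside -0.02 over all genes. For the genes called lower in P1.hMR rats, a lower value is a larger fall, as for Col1a1 (-0.86 against -0.51 in WT). The 24 were 6 of 7 fibrillar, 7 of 7 basement membrane and 11 of 14 other collagens. The 5 genes with an unadjusted p under 0.05 were Col9a3 (-0.47), Col15a1 (-0.38), Col8a2 (-0.36), Col11a2 (-0.36) and Col7a1 (-0.28), with adjusted p between 0.704 and 0.711, all named after their values were seen. This count was read after the values were seen, and collagens that vary together between rats are not independent, so no test is given. Without UVB WT rat 1, which was the highest of its group for 16 genes, the count was 24 and the median was -0.11. Without UVB P1.hMR rat 2 the count was 21. In P1.hMR against WT, the log2FC was above 0 for 20 of the 28 collagens in control rats (median 0.10). Over all genes it was above 0 for 6402 of 13105 (median -0.0023). In UVB rats it was above 0 for 4 collagens (median -0.08), beside 5700 of all genes (median -0.02). Neither comparison called a collagen.

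The genes that build, cross-link, bind and degrade collagen were read from lists written with earlier results of these data known. Of 86 listed genes 72 were tested, and 12 rose and 2 fell in WT and 11 rose and none fell in P1.hMR. These were 19.4% of the 72 in WT, beside 7.91% of all genes, and 15.3% in P1.hMR, beside 10.8%, and with lists of 4 to 19 genes the counts per role are given as descriptions. Collagenases and other enzymes of breakdown held the largest part, with 5 of 7 called higher in WT and 4 of 7 in P1.hMR. Mmp13, an interstitial collagenase, averaged 0.91 ± 0.288 TPM (SD, n = 4) in Control WT against 3.35 ± 2.05 TPM (SD, n = 3) in UVB WT rats, and 0.54 ± 0.0797 TPM (SD, n = 5) in Control P1.hMR against 3.40 ± 0.361 TPM (SD, n = 5) in UVB P1.hMR rats. Its log2FC was 1.10 ± 0.20 (SE, adjusted p = 0.0016) in WT and 1.51 ± 0.17 (SE, adjusted p = 6.67e-06) in P1.hMR. Mmp2, Mmp3 and Mmp9 were also called higher in both genotypes and Mmp14 in WT.

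Of the 5 cross-linking enzymes, Lox, which links collagen chains covalently, was the only one called. It averaged 5.04 ± 0.936 TPM (SD, n = 4) in Control WT against 11.2 ± 3.06 TPM (SD, n = 3) in UVB WT rats, and 5.82 ± 0.276 TPM (SD, n = 5) in Control P1.hMR against 12.5 ± 1.19 TPM (SD, n = 5) in UVB P1.hMR rats, with a log2FC of 0.99 ± 0.14 (SE, adjusted p = 0.000282) and 0.98 ± 0.12 (SE, adjusted p = 1.39e-05). Of the 11 fibril partners tested, Lum, a proteoglycan that regulates fibril diameter, rose most, by 1.89 ± 0.17 (SE, adjusted p = 6.35e-06) in WT and 1.88 ± 0.14 (SE, adjusted p = 2.35e-07) in P1.hMR on the log2 scale. Dcn and Thbs2 also rose in both genotypes, while Fmod, a relative of Lum, fell in WT with -0.52 ± 0.17 (SE, adjusted p = 0.039) and had -0.26 in P1.hMR (adjusted p = 0.166). Postn fell in WT as well. Among the basement membrane partners, Pxdn, which cross-links type IV collagen, was called in WT. Of the 4 propeptide enzymes, Tll1 rose in WT with 0.56 ± 0.13 (SE, adjusted p = 0.00592). None of the 19 genes of helix modification and folding was called in WT, and Plod2, a lysyl hydroxylase, rose in P1.hMR with 0.61 ± 0.12 (SE, adjusted p = 0.00103), along with P4ha3. None of the 7 export genes and none of the 7 collagen receptors was called in either genotype.

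Some markers of stromal and other cells moved with UVB too. Of the 8 fibroblast markers, Pdgfra, Lum and Dcn rose and Pi16 fell in both genotypes, and Scara5 rose in P1.hMR. Their summed level was 394 to 583 TPM in Control WT and 636 to 1092 TPM in UVB WT rats, and 526 to 621 TPM and 853 to 1024 TPM in P1.hMR. Dcn and Lum, which are also among the fibril partners, carried this difference. Without them, a choice made after the values were seen, the other 6 summed to 159 to 215 TPM in Control WT and 165 to 226 TPM in UVB WT rats. In P1.hMR they summed to 183 to 230 and 159 to 203 TPM, and the groups overlapped in both genotypes. This sum joins opposite changes. Pi16 averaged 74.0 TPM in Control WT and 46.45 TPM in UVB WT rats, and 76.4 and 41.1 TPM in P1.hMR. Pdgfra averaged 7.0 and 13.2 TPM in WT, and 8.4 and 14.7 TPM in P1.hMR. Of all 8 markers, 6 had a log2FC above 0 in each genotype, with a median of 0.46 in WT and 0.35 in P1.hMR. Of the 8 macrophage markers, C1qa, C1qb, C1qc and Mrc1 rose in both genotypes, and the sum, 176 to 498 TPM in Control WT and 202 to 333 TPM in UVB WT rats and 177 to 435 and 279 to 397 TPM in P1.hMR, overlapped. Of the 7 endothelial markers only Vwf was called, higher in both genotypes. The log2FC was above 0 for 6 of the 7 in each, and 4 in WT and 5 in P1.hMR had an adjusted p below 0.05 in limma. Their sum was 55.65 to 67.26 TPM in Control WT and 68.85 to 78.69 TPM in UVB WT rats. For P1.hMR it was 60.81 to 69.11 TPM without UVB and 69.14 to 77.5 TPM with it. The UVB rats were above the controls in both genotypes, narrowly in P1.hMR. Of the 8 mural markers Pdgfrb and Des rose in WT and Myh11 fell in P1.hMR. None of the 6 basal epithelial markers tested was called, although 2 in WT and 4 in P1.hMR had an adjusted p below 0.05 in limma. The log2FC was above 0 for 3 of the 6 in WT and for 4 in P1.hMR. Their sum was 7945 to 10122 TPM in Control WT and 10428 to 11520 TPM in UVB WT rats, without overlap. For P1.hMR it was 8604 to 9840 TPM without UVB and 8243 to 13276 TPM with it, with overlap. The part of these markers in the collagen results was not tested.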

How the data were processed

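RNA sequencing of the MG from 17 rats was analysed. The authors deposited TPM for 17251 genes in 1 column per rat, written with decimal commas. The paper's methods name FastQC, STAR and RSEM on the rn7 build, whereas the submitters' processing notes name FastQC, Trimmomatic, DRAGEN and Picard with rn7, so the software behind the deposited TPM is uncertain. TPM keeps no counts, so depth is unknown and precision comes from the spread between rats. The column sums were 804378 to 840817 TPM.

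Rats were grouped by their labels, which do not say that they shared a batch or litter. Genes reaching 1 TPM in 3 or more rats, 13105 in number, were fitted as log2(TPM + 1) in R 4.3.3 with limma 3.58.1, with 1 mean per group over all 17 rats and a variance trend. The p-values are two-sided with Benjamini-Hochberg adjustment over all 13105 genes, and the thresholds, 0.05 for the adjusted p and 0.5 for the size of the log2FC, are those of the study's methods. The authors ran DESeq2, which needs counts and was not used here. Simulated data had independent normal noise with the spread of each gene, and 66 or 67 randomly drawn genes were changed at each size. On these data the model recovered 92.5% of changes of 1 and 86.6% of changes of 0.75 (log2) for UVB in WT. The same shares were 95.5% and 94% for UVB in P1.hMR, 92.5% and 82.1% for P1.hMR against WT under UVB, 94% and 92.5% without UVB, and 86.6% and 74.6% for the interaction. With fewer changed genes the adjusted p is stricter, so these shares may overstate what the genotype and interaction fits could detect. The same holds for genes of wide spread such as Col1a1 (interaction SE 0.29). Chain ratios were compared with two-sided exact permutation tests, adjusted over 10 tests.

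The members, classes, pathway and marker lists were chosen with earlier results of these data known. Some listed genes are not reported here. Full statistics were given to members called in at least 1 comparison, to the paired chains and to the 2 most abundant members of each class, and, per pathway role, to the called gene that rose most and the called gene that fell most in each UVB comparison. The alternatives tried were another pseudocount, other filters, fold thresholds and scalings, a fit without a trend, sample weights, only the 2 groups compared, a replicate block, other class boundaries, and each rat left out in turn. Promoter windows and motif letters were read with Python 3.11.15 from RefSeq on GRCr8, and no coordinates of the rn7 build were used.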

Additional observations from a re-analysis of the deposited data

Results flagged for a closer look

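In 84 tests of 1 collagen in 1 group of 4 or 5 rats, 3 had a rat standing apart from the rest by Dixon's test at 95%, where chance flags about 1 in 20. Col28a1 was at 2.61 TPM in Control WT rat 4 against 1.67 to 1.78 TPM in the others. Col4a5 was at 5.35 TPM in Control WT rat 3 against 4.42 to 4.56 TPM. Col6a1 was at 51.4 TPM in Control P1.hMR rat 1 against 58.4 to 60.7 TPM. None of these genes was called in any comparison.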

How the results depend on the processing

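The number of called collagens changed most with the thresholds and the filter. At a mean of at least 5 TPM, which left 16 collagens, 3 were called in WT and 5 in P1.hMR. With a fold threshold of 1 (log2) the count was 1 in each genotype, Col8a1, and with no fold threshold it was 15 in P1.hMR and 7 in WT. Under the other planned settings the counts stayed within 1.5 times those reported. With each rat left out in turn they ran from 4 to 7 in WT and stayed at 9 in P1.hMR, and the genotype and interaction counts stayed at 0. The number of chain ratios past the threshold ran from 4 to 5, and 14 of the 16 collagens at a mean of at least 5 TPM had an interaction below 0. No result reversed. The replicate numbers of the labels were not used as pairs. Of 22 same-numbered pairs 4 correlated above 0.1 (range -0.19 to 0.24), and 6 of 17 rats correlated best with their own number. Same-numbered Control WT and Control P1.hMR rats had 0.19, 0.04, 0.12 and 0.24. No level for unpaired rats was computed, so this check cannot exclude a pairing. With the replicate block, 6 collagens were called in WT and 9 in P1.hMR. Depth is unknown, and low collagens such as Col11a1 and Col4a4 can hide changes under log2(TPM + 1).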
